A study of Mus musculus with 40 samples.

Results

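Pck1 and Pck2 encode the cytosolic and the mitochondrial form of phosphoenolpyruvate carboxykinase, and the CpGs at the start of each gene were read by bisulfite sequencing of PCR products from mouse liver. Members were taken by position in the mouse build mm9: the 5 CpGs from chr2:172978445-172978561 for Pck1 and the 10 CpGs from chr14:56159093-56159211 for Pck2, which is 15 of the 300 CpGs of the series. All 15 passed the filter of at least 10 reads in at least 36 animals, as did 253 CpGs at 19 loci in all. The animals were male C57BL/6J mice (C57BL/6 in the labels) aged 9 weeks. Dams were fed a low fat (LF) or high fat (HF) diet, and their sons were given an LF or HF diet after weaning. Groups are written with the diet of the dam first: LL (n = 10), HL (n = 9), LH (n = 10) and HH (n = 10), and HL replicate 1 was not analysed here. No allele or drug differed between the groups, and each animal is 1 library. The labels name no dam or litter, so the p-values below measure the spread between these animals, some of which may be brothers. The files used here hold DNA methylation only, so the liver label was not checked against marker genes.

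The enzyme turns oxaloacetate into phosphoenolpyruvate, an early, rate-controlling step as the liver makes glucose from lactate and amino acids. Pck1 is the hormone-controlled form: fasting and glucagon raise its transcription through cyclic AMP and a cAMP response element close to the gene start, and insulin shuts it down. Pck2 acts inside mitochondria and is known as the form whose expression varies less with hormones. Methylation of cytosine in CpGs near a start site is generally associated with low promoter activity, and promoters rich in CpGs are usually unmethylated.

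The Pck1 sequence is shown because 1 of its CpGs lies inside a cAMP response element. CpGs are in capitals, all stretches are on the plus strand of mm9, and both genes are transcribed from that strand. The first stretch covers chr2:172978394-172978548, which ends at the last base before the GENCODE start of Pck1 (ENSMUSG00000027513.5, gene body chr2:172978549-172984774), and the second covers the 30 bases at chr2:172978547-172978576 around the last CpG.
Pck1 upstream stretch: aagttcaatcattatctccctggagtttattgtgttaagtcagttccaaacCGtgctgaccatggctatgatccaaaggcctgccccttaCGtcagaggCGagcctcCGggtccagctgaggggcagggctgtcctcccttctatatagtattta
Pck1_5 with 30 bases around it: taaagcaaggagggCGggctaccaagcaca

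The RefSeq start of Pck1, found by matching the RefSeq promoter sequence to the genome, is at base 172978574. From there the 5 CpGs sit at -129 (Pck1_1), -90 (Pck1_2), -81 (Pck1_3), -73 (Pck1_4) and -13 (Pck1_5). GENCODE starts the gene earlier, so Pck1_5 is upstream by RefSeq and at position 12 of the 5′ UTR by GENCODE. The variant cAMP response element TTACGTCA spans chr2:172978481-172978488, -93 to -86 from the RefSeq start, and holds Pck1_2. Of 32851 RefSeq promoter windows of 300 bases, 0.499% hold TTACGTCA on either strand, 1.79% the consensus TGACGTCA and 20.8% the shorter core TGACG, which overlaps the Pck1 element on the minus strand. Pck1_5 lies in a GC box, GGGCGG, the letters bound by Sp1-type factors, which 35.7% of promoter windows hold. The letters TATAAA (13.6% of windows), CACGTG (7.15%) and CCAAT (37.4%) were not in the Pck1 window. Only these exact letters were searched, so an element with other letters, such as a variant TATA box, would not have been found.

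For Pck2 the stretch upstream of the start (chr14:56159062-56159102) and 30 bases around the CpG with the highest mean (chr14:56159159-56159188) are shown, because its CpGs are more densely packed and were almost free of methylation.
Pck2 upstream stretch: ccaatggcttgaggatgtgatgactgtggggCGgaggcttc
Pck2_6 with 30 bases around it: aaccagctaggttcCGcccCGgggactgcc

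Pck2 (ENSMUSG00000040618.5, gene body chr14:56159103-56168854) starts at the same base in RefSeq and GENCODE. Pck2_1 lies 10 bases upstream, at -10, and the other 9 CpGs lie in the 5′ UTR between positions 8 and 108. GC boxes hold Pck2_1, Pck2_6 and Pck2_10, and a CCAAT box lies at -41 to -37. The RefSeq window of Pck2 holds 9 CpGs and that of Pck1 holds 6, beside a median of 7 over all windows.

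The promoters stood at very different levels. Pck1 methylation, the mean over its CpGs, was 25.7% ± 6.37 (SD, n = 39 animals), ranging from 17.6 to 46.7%. Pck2 methylation was 0.754% ± 0.150 (SD, n = 39), ranging from 0.477 to 1.12%. Pck1 thus ranked 7 of 19 loci by mean, between Nr1i3 (32.0% ± 3.78) and Rxrg (12.2% ± 3.62), and first by SD between animals, ahead of Plagl1 (4.09). Pck2 ranked 16, next to Nfkb2 (0.772% ± 0.106) and Srebf1 (0.736% ± 0.0732), and its distance to either neighbour was smaller than the SDs. By SD it ranked 13, between Rxra (0.329) and Srebf2 (0.120). Unconverted cytosine is also read as methylated, and whether incomplete conversion contributes to levels as low as those of Pck2 was not tested.

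Within the Pck1 promoter, the lowest and the highest CpG were the same in nearly every animal. Pck1_1, the CpG farthest from the start, was the lowest in 39 of 39 animals, at 19.9% ± 4.88. Pck1_5, the CpG next to the start, was the highest in 37 of 39, at 30.2% ± 7.25. Its C is the last base before the reverse primer, which starts at base 172978562, and its depth differed from that of the other CpGs. Whether either affects its level was not tested. The CpG inside the cAMP response element, Pck1_2, was the highest in the remaining 2 animals and had a mean of 27.6% ± 7.23. It exceeded Pck1_3, which lies 9 bases downstream in the sequence printed above, in 36 of 39 animals (mean of Pck1_3 minus Pck1_2 -2.29 points, SD 1.59). Pck1_3 (25.3% ± 6.49) and Pck1_4 (25.5% ± 6.50) could not be ranked: Pck1_4 was the higher of the pair in 19 animals and the lower in 20. The 5 CpGs moved together across animals, with Pearson correlations from 0.919 to 0.980 over 10 pairs of CpGs, described without a test because CpGs of 1 PCR product share reads and library.

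**Figure D1:**
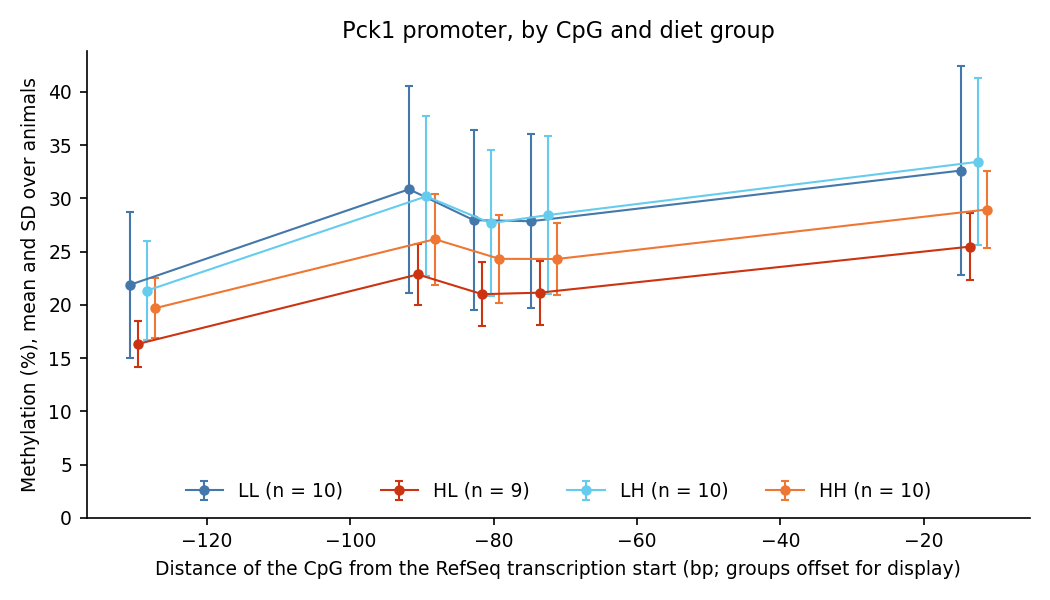
Methylation of the 5 Pck1 CpGs (%, mean and SD over animals, vertical axis) against distance from the RefSeq start (bp, horizontal axis) for LL, HL, LH and HH. All 4 groups rise from -129 to -90 and again to -13, HL is lowest at each CpG, and the bars of LL and LH are longer than those of HL and HH. The CpG at -13 adjoins the reverse primer.

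No such order was seen at Pck2. Its CpG means ran from 0.588% ± 0.298 (Pck2_7) to 0.987% ± 0.465 (Pck2_6), each over 39 animals. The CpG most often the highest, Pck2_6, was so in 9 of 39 animals, and the CpG most often the lowest, Pck2_3, in 9 of 39. Correlations between Pck2 CpGs ran from -0.310 to 0.505 over 45 pairs, with a median of 0.0784. A single value of 0 was recorded: Pck2_5 in HL replicate 2 had 0 methylated of 2138 reads, which allows a level of up to 0.140%, or up to 0.281% if both mates of each read pair were counted.

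Depth was higher at Pck1 than at Pck2. The median over CpGs ranged across animals from 11534 to 153556 reads at Pck1 and from 2139 to 17264 reads at Pck2, while reads summed over all CpGs of an animal ranged from 1530126 to 15531697. Total and methylated counts were even numbers in 39 of 39 animals at Pck1_1 to Pck1_4. At Pck1_5 the totals were even in 21 of 39 animals, and its depth was 0.497 of the locus median. Whether overlapping read mates were both counted was not tested, so intervals were also computed with all reads halved. The widest 95% Wilson interval of a CpG in a single animal then spanned 3.47 points at Pck1 and 1.36 points at Pck2, against 2.45 and 0.953 points with reads as deposited. These intervals cover counting error only, since PCR reads without molecular identifiers are not independent molecules. With reads halved, the variance between animals exceeded the binomial variance 264 to 563 times at the Pck1 CpGs and 2.71 to 8.21 times at the Pck2 CpGs. The widest Pck1 interval and the ratio of 264 are those of Pck1_5, whose totals were not all even. Whether halving applies to that CpG was not tested, and its ratio was 528 with reads as deposited.

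Mean Pck1 methylation was lowest in HL, the sons of HF dams given LF food after weaning, and no difference between groups passed the adjusted threshold of 0.05. In LL the lowest animal was at 20.6%, the median at 25.2% and the highest at 46.7% (mean 28.2% ± 8.52). In HL these were 17.6, 21.1 and 27.2% (21.4% ± 2.70), in LH 20.05, 25.8 and 42.5% (28.2% ± 6.80), and in HH 20.1, 24.4 and 29.3% (24.7% ± 3.47). The ranges of all 4 groups overlap, and HL, the lowest group, also has the smallest SD. Above 29.3%, the highest son of an HF dam, lay 3 of the 10 LL and 4 of the 10 LH animals. This cut was taken from the same values, so animals above it have LF dams by construction. At Pck2, 6 of 20 sons of LF dams lay above the highest son of an HF dam, 3 in LL and 3 in LH.

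**Figure D2:**
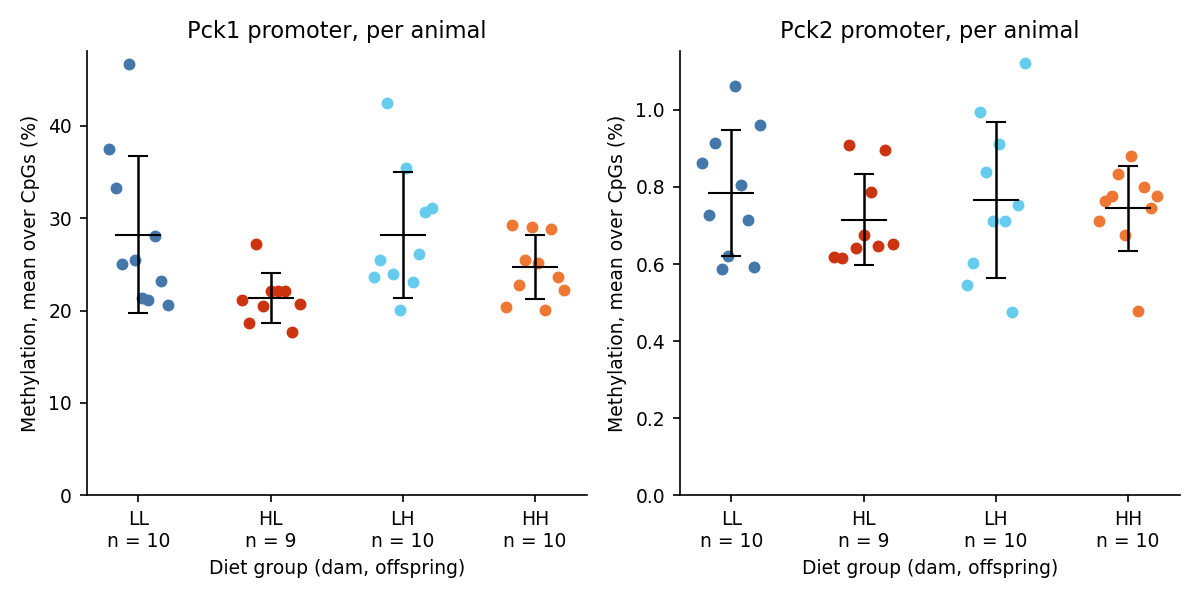
Methylation averaged over the CpGs of the Pck1 (left) and Pck2 (right) promoter (%, vertical axes, which differ in scale) for each animal (points) by diet group, with the group mean and SD (bars). At Pck1 the animals above 29.3%, the highest value in sons of HF dams, are by construction in LL and LH. At Pck2 the animals range from 0.477 to 1.12% and the 4 groups overlap.

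The effect of maternal diet in LF-weaned offspring was tested by HL vs LL. Pck1 was lower in HL, by -6.87 points (SE 2.97, exact permutation p 0.0174), and 8 of 9 HL animals lay under the LL median. Adjusted over 19 loci, of which 0% passed, this p became 0.165. The smallest p of the 19 loci was that of Plagl1 (-5.81 points, exact permutation p 0.00435, adjusted p 0.0827), and Pck1 ranked 2. HL had the lowest group mean at Plagl1 too (47.7%), so a low HL mean was not particular to Pck1. All 5 Pck1 CpGs had an unadjusted p under 0.05, where 14.6% of the 253 tested CpGs did, with differences from -7.999 points at Pck1_2 to -5.53 at Pck1_1 and exact permutation p-values from 0.0129 to 0.0461. After adjustment none passed (0 of 5 and 0% of all CpGs, lowest adjusted p 0.175). Because the 5 CpGs are nearly collinear, their count carries little more than 1 result. Pck2 differed by -0.0690 points (SE 0.0661, exact permutation p 0.307), and 0 of its 10 CpGs had an unadjusted p under 0.05. The depth of Pck1 differed by -0.05 between HL and LL (log2 of median reads, exact permutation p 0.895). Without LL replicate 4, the highest animal of the series, the Pck1 difference was -4.82 points, and it ranged from -7.72 to that value over all animals left out.

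In HF-weaned offspring, tested by HH vs LH, the Pck1 difference had the same sign and was smaller, -3.53 points (SE 2.41, p 0.161, adjusted p 0.690, n = 10 and 10), with 7 of 10 HH animals under the LH median. Without LH replicate 3 it was -1.94 points. No Pck1 or Pck2 CpG had an unadjusted p under 0.05, beside 2.77% of all CpGs (1 Pck1 CpG did without LH replicate 5), and 0% of CpGs and loci passed after adjustment. Pck2 differed by -0.0224 points (SE 0.0728, p 0.762). The maternal differences in the 2 diets were compared by the interaction term, which was 3.34 points at Pck1 (SE 3.81, p 0.386) and 0.0467 points at Pck2 (SE 0.0987, p 0.639). At Pck1 it was 1.29 points without LL replicate 4. No member CpG had an unadjusted p under 0.05 for the interaction, against 6.72% of CpGs, and 0% passed after adjustment.

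Over both post-weaning diets, Pck1 had the smallest p and the largest absolute difference of the 19 loci for maternal diet. Sons of HF dams stood at 23.1% ± 3.49 (n = 19) and sons of LF dams at 28.2% ± 7.50 (n = 20). The linear model gave -5.15 points (SE 1.90, p 0.0101), 14 of 19 sons of HF dams lay under the median of the other sons, and the adjusted p was 0.125. Plagl1 ranked 2 by p and by absolute difference, at -3.21 points (SE 1.23, F test p 0.0131) with the same adjusted p. Pck1 also had the largest SD between animals of the 19 loci. Each of the 5 Pck1 CpGs had an unadjusted p under 0.05, beside 11.9% of all CpGs, and 0 passed after adjustment, as did 0% of CpGs and loci. At Pck2 the term was -0.0451 points (SE 0.0488, p 0.362) and 0 of 10 CpGs had an unadjusted p under 0.05.

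Family could not be accounted for in the test of maternal diet, because the labels name no dam or litter. Animal numbers were split into 12 runs, with neighbours in a run at most 3 apart. With this cut, which was chosen here and is not in the labels, every run holds sons of dams on 1 diet only. Other cuts were not tested, and the run values below hold for this one. The labels do not say what a run stands for. Run means of Pck1 ranged from 19.2 to 24.9% in 6 runs of HF dams and from 24.6 to 32.0% in 6 runs of LF dams, so the ends of the ranges meet. With each run counted as 1 value the difference was -5.01 points (exact permutation p 0.00649, adjusted p 0.123). The 2 highest animals, LL replicate 4 at 46.7% and LH replicate 3 at 42.5%, belong to the same run, whose other 3 animals lie between 21.4 and 25.5%. At Pck2 the run means differed by -0.0262 points (exact permutation p 0.597).

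**Figure D3:**
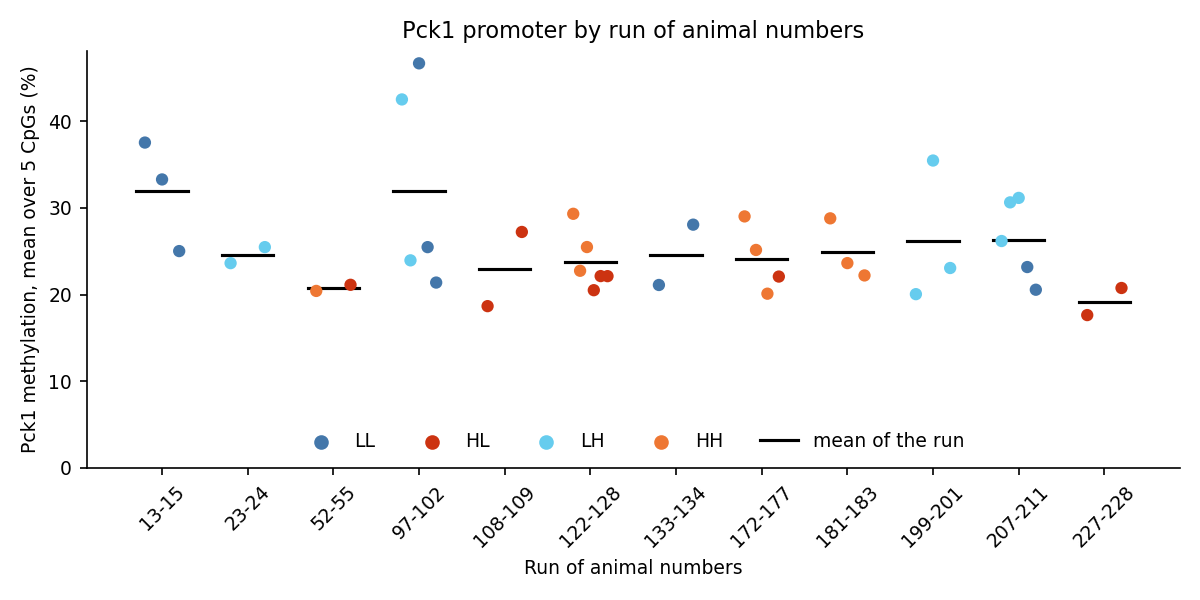
Pck1 methylation (mean over 5 CpGs, %, vertical axis) of each animal (points, coloured by diet group) in 12 runs of neighbouring animal numbers (horizontal axis), with the mean of each run (black line). Run means lie at 19.2 to 24.9% for HF dams and 24.6 to 32.0% for LF dams, and the run 97-102 holds both the highest and several low animals.

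The diet after weaning was tested at each maternal diet. In sons of LF dams, LH vs LL, Pck1 differed by -0.0173 points (SE 3.45, p 0.996, n = 10 and 10), and 0 of 5 CpGs had an unadjusted p under 0.05. The sign is not stable, and it was positive in both runs that hold the 2 groups. Within these runs, which hold only 10 animals, the difference was 4.76 points (exact permutation p 0.360, smallest possible 0.02). At Pck2 the difference was -0.0176 points (SE 0.0824, p 0.833), and 2 of 10 CpGs, Pck2_3 and Pck2_9, had an unadjusted p under 0.05, beside 7.91% of all CpGs. Both were lower in LH, by 0.245 points at Pck2_3 (difference -0.245, SE 0.102, p 0.0270) and by 0.316 points at Pck2_9 (difference -0.316, SE 0.147, p 0.0453), with adjusted p-values of 0.572 and 0.625. No CpG or locus passed (0%).

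In sons of HF dams, HH vs HL, Pck1 was 3.33 points higher in HH (SE 1.44, exact permutation p 0.0347), with 8 of 10 HH animals above the HL median and an adjusted p of 0.253. The share of loci past the adjusted threshold was 5.26%, which is 1 locus and not a member. Of the 5 Pck1 CpGs, 3 had an unadjusted p under 0.05 (Pck1_1, Pck1_4 and Pck1_5), beside 12.6% of all CpGs, and 0% of CpGs passed after adjustment. Within 3 runs that hold both groups (12 animals) the difference was 2.93 points (exact permutation p 0.138, smallest possible 0.0125), positive in 2 of the 3. Over the 19 animals left out in turn, the difference ranged from 2.81 points without HH replicate 2 to 4.06 points and the exact permutation p from 0.00686 without HL replicate 4, the highest HL animal, to 0.0671 without HL replicate 9, and it was under 0.05 in 12 of the 19. The count of 3 CpGs rose to 5 without HH replicates 1 or 7 or HL replicate 4, and dropped to 1 without HH replicates 2, 5, 6 or 8 or HL replicates 3, 5, 8, 9 or 10. Pck2 differed by 0.0290 points (SE 0.0521, exact permutation p 0.585), with 0 of 10 CpGs under 0.05.

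Over both maternal diets, post-weaning diet gave 1.61 points at Pck1 (SE 1.90, p 0.402) and 0.00507 points at Pck2 (SE 0.0488, p 0.918). The Pck1 value was 0.860 points without LH replicate 3 and 2.68 points without LL replicate 4, and neither passed an unadjusted 0.05. No Pck1 CpG and 2 of 10 Pck2 CpGs had an unadjusted p under 0.05, beside 10.7% of all CpGs. Pck2_2 was lower on the HF diet (-0.179 points, SE 0.0839, p 0.0402) and Pck2_5 higher (0.186 points, SE 0.0913, p 0.0494). Neither passed adjustment, while 1.19% of CpGs and 5.26% of loci did.

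The remaining pairs complete the order of the groups, which was HL, HH, LH, LL from low to high at both genes. Neighbours in that order did not differ beyond the adjusted threshold at either gene. The largest of all Pck1 contrasts beside HL vs LL was LH vs HL, where animals exposed to the HF diet only after weaning stood 6.85 points above those exposed only through the dam (SE 2.43). Of the 10 LH animals, 9 lay above the HL median, the exact permutation p was 0.00530, the smallest of the 19 loci, and the adjusted p was 0.0961, with 0% of loci past the threshold. All 5 CpGs had an unadjusted p under 0.05, beside 13.0% of all CpGs, and 0 of 5 passed after adjustment, beside 0.395% of all CpGs. Whether this contrast passed depended on single animals: without HL replicate 4 the difference was 7.59 points with an adjusted exact permutation p of 0.0165 and 4 of 5 CpGs past the adjusted threshold, and without LH replicate 5 it was 7.76 points with an adjusted exact permutation p of 0.0207. HH vs LL gave -3.54 points at Pck1 (SE 2.91, p 0.239), with 0 of 5 CpGs under an unadjusted 0.05, and -1.49 points without LL replicate 4. At Pck2 that pair differed by -0.0400 points (SE 0.0624, p 0.530), and 1 of 10 CpGs, Pck2_3, had an unadjusted p under 0.05 (-0.253 points, SE 0.0822, p 0.00653, adjusted p 0.428, 9 of 10 HH animals under the LL median), beside 7.91% of all CpGs. After adjustment 0% of CpGs and 5.26% of loci passed in HH vs LL, none of them a member. Pck2 in LH vs HL differed by 0.0514 points (SE 0.0771, exact permutation p 0.516), with 0 of 10 CpGs under 0.05.

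**Figure D4:**
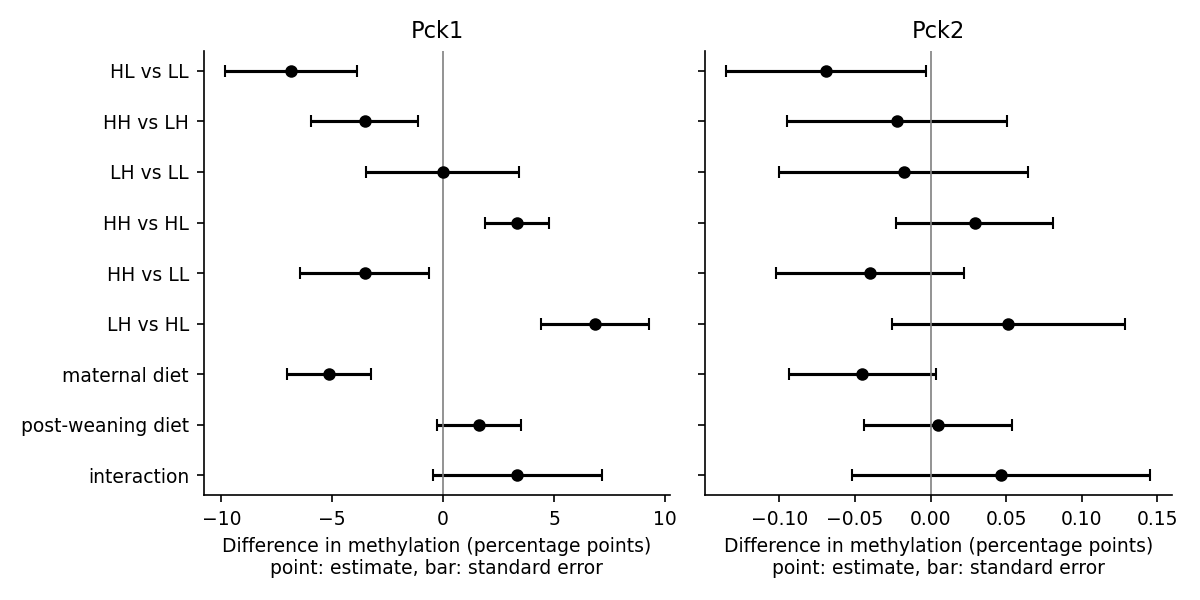
Difference in methylation (percentage points, horizontal axes, which differ in scale) at Pck1 (left) and Pck2 (right) in 6 pairwise comparisons and 3 model terms, with standard errors as bars. The Pck1 differences run from -6.87 points (HL vs LL) to 6.85 points (LH vs HL), and those of Pck2 stay within 0.1 points of 0.

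Pck2_3 is the Pck2 CpG with the smallest p in any comparison. Its LL animals ranged from 0.466 to 1.01% with a median of 0.835%, and the HH animals from 0.348 to 0.943% with a median of 0.487%. HL (median 0.536%) and LH (median 0.529%) lay near HH, so LL had the highest median at this CpG, with overlapping ranges. No difference at Pck2_3 passed adjustment, and whether incomplete conversion contributes at this level was not tested. Neighbouring CpGs did not share the pattern, as the plot of the Pck2 CpGs shows.

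**Figure D5:**
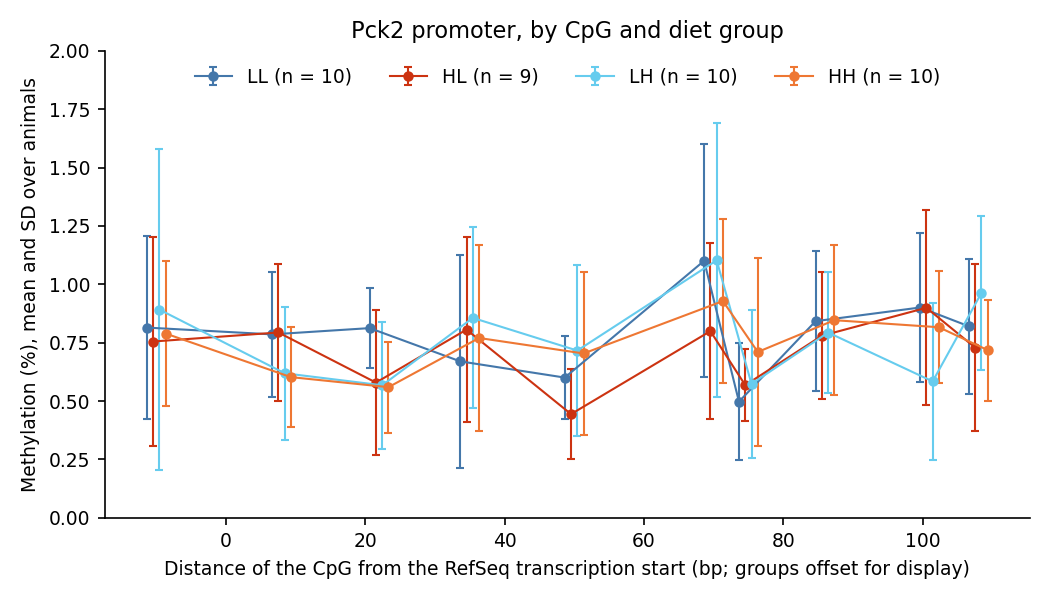
Methylation of the 10 Pck2 CpGs (%, mean and SD over animals, vertical axis) against distance from the transcription start (bp, horizontal axis) for LL, HL, LH and HH. Group means lie between 0.444 and 1.10% and the lines cross repeatedly, with LL highest at Pck2_3.

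The spread between animals was also compared by maternal diet, a test chosen after the values were seen. At Pck1 the mean distance of an animal from the median of its own group was 2.35 points in sons of HF dams and 5.48 points in sons of LF dams (permutation p 0.0218 within post-weaning diet, adjusted p 0.293). At Pck2 the corresponding values were 0.0755 and 0.146 points (permutation p 0.0308, adjusted p 0.293). Pck1 and Pck2 were the 2 loci of 19 with an unadjusted p under 0.05 (10.5%), and 0% passed after adjustment. Measured from the group mean instead of the median, the Pck1 difference was -3.61 points with an adjusted permutation p of 0.00570 and that of Pck2 -0.0622 points with an adjusted permutation p of 0.163, so the call at Pck1 turns on the choice of centre. In LL the Pck1 mean (28.2%) lay above the median (25.2%), pulled by a few high animals. The 2 highest animals share a run, and the permutation treats animals as independent.

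The relation of the 2 promoters across animals did not pass a test. Over 39 animals the coefficient was 0.195 (Pearson, permutation p 0.234) and 0.220 (Spearman, permutation p 0.178), and Pearson's r was 0.264 without the 2 animals farthest from the Pck1 median, 0.137 after centring on group means and 0.0673 after centring on runs. In all, 37 relations were computed, of each promoter with every other tested locus and with its own depth. By Pearson's r 0 passed after adjustment and 8 had an unadjusted permutation p under 0.05. By Spearman's rho 3 passed, all with Pck1. The loci with the largest absolute r with Pck1 were Plagl1, Nr1i3 and Nr1h2, of which Nr1h2 ran in the opposite direction. Plagl1, an imprinted gene, had r 0.490 (permutation p 0.00156, adjusted 0.0577) and rho 0.505 (permutation p 0.00100, adjusted 0.0185), with r 0.470 without the 2 farthest animals, 0.357 after centring on group means and 0.365 after centring on runs. Nr1i3, which encodes the nuclear receptor CAR, had r 0.394 (permutation p 0.0136, adjusted 0.168) and rho 0.554 (permutation p 0.000320, adjusted 0.0118), with r 0.502 without the 2 farthest animals, 0.413 within groups and 0.471 within runs. Nr1h2 had r -0.365 (permutation p 0.0244, adjusted 0.220) and rho -0.362 (permutation p 0.0233, adjusted 0.134), and r fell to -0.185 without those 2 animals. The third relation past the threshold by rho, named after its value was seen, was with Lepr (rho 0.465, permutation p 0.00324, adjusted 0.0400; r 0.325, permutation p 0.0420, adjusted 0.222), with r 0.361 without the 2 farthest animals. For Pck2 the loci with the largest absolute r were Srebf1, Lep and Insig2, of which Lep ran in the opposite direction. Srebf1 had r 0.404 (permutation p 0.0108, adjusted 0.168) and rho 0.384 (permutation p 0.0161). Lep had r -0.346 (permutation p 0.0306, adjusted 0.220) and rho -0.321 (permutation p 0.0466). Insig2 had r 0.209 (permutation p 0.206) and rho 0.127 (permutation p 0.447). Without the 2 animals farthest from the Pck2 median the r values became 0.272, -0.264 and -0.0173, in that order. No relation to a promoter's own depth passed (Pck1 r -0.135, permutation p 0.406; Pck2 r 0.133, permutation p 0.419).

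Genes that act on Pck1 or in insulin signalling to it were taken as a list: Irs1, the adaptor of the insulin receptor, Rxra and Rxrg, the retinoid X receptors, Pparg, which drives Pck1 in fat, and Srebf1, an insulin-induced repressor. Of the 5 genes, 4 had a tested locus, and Pparg was not tested. In each of the 9 comparisons 0 of the 4 passed the adjusted threshold and 0 had an unadjusted p under 0.05 in either direction (lowest p 0.121, for post-weaning diet). Of all 19 loci, between 0 and 21.1% had an unadjusted p under 0.05 in a comparison, so 0 of 4 is near the background. Their median difference for maternal diet was -0.125 points, beside -0.0369 over all 19 loci, and the differences of the 4 ranged from -1.13 to 0.00389 points.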

How the data were processed

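Liver DNA was bisulfite converted, so that unmethylated cytosine reads as thymine, and selected loci were amplified by PCR, pooled per animal and sequenced. Per the labels, the authors used Bismark and mm9, and the Bismark version is not given in the sources used here. They deposited, for each CpG of each animal, counts of methylated and total reads, and a second table with the methylated fraction, which the authors' counts gave back to within 5.00e-16. No animal's column was left unused (0). The conversion rate was not analysed here. Coordinates and sequence of Lepr are left out.

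Percent methylation was 100 times methylated over all reads. The filter kept CpGs that 36 or more animals covered with 10 or more reads, and a locus mean is the mean over its tested CpGs. Pairwise differences were tested, 2-sided, by Student's t-test where both groups held 10 values and by an exact permutation test, doubling the smaller tail, elsewhere. Linear models over all 4 groups gave the F tests of each diet and of the interaction. Adjustment followed Benjamini and Hochberg over the whole table within a comparison, at 0.05. Correlations and spread used 100000 permutations. All 51 CpGs on the members' chromosomes were a C followed by G in NCBIM37, and both promoters were matched in the RefSeq table. Gene models are GENCODE M1.

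The members and lists were chosen with earlier results of these data known. Other loci are named by rule: the 3 with the largest absolute r with each member, the neighbours of each member in mean and SD, and a list of 5 genes. The tests were run on simulated data with a planted change larger than any difference seen here and less spread between animals than at Pck1. This does not show which differences the tests could detect at these promoters. Alternatives were a rank test, a quasi-binomial model, limma, minimum coverage of 100 or 1000 reads, CpGs with values in every animal, pooled reads, a median over CpGs, another adjustment family, runs of animal numbers and leaving out each animal. R 4.3.3 with limma 3.58.1 and Python 3.11.15 with SciPy 1.17.1 and NumPy 2.4.6 were used.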

Additional observations from a re-analysis of the deposited data

Results flagged for a closer look

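In 68 sets of values, 1 for each group at each locus mean and each CpG, an animal far from the rest of its group was looked for, and 7 had one, where 3.4 are expected by chance. CpGs of a locus share reads, so the sets are not independent. At Pck1, HL replicate 4 stood at 27.2%, beside 22.1% for the next highest HL animal, and it was also apart at Pck1_3, with 27.9% beside 22.4%. LL replicate 4 was apart at Pck1_1, with 38.2% beside 27.3%, and not by this measure at the locus mean, where LL replicate 1 stood at 37.5%. At Pck2, HH replicate 7 had the lowest locus mean of HH, 0.478% beside 0.677%. Among Pck2 CpGs, HL replicate 9 was apart at Pck2_1 (1.83% beside 0.892%), HH replicate 8 at Pck2_7 (1.74% beside 0.994%) and HL replicate 2 at Pck2_5 (0% beside 0.365%).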

How the results depend on the processing

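No alternative brought a locus difference past the adjusted threshold except in LH vs HL at Pck1: the quasi-binomial model gave a log odds of 0.387 with an adjusted p of 0.0301, and leaving out HL replicate 4 or LH replicate 5 gave the calls stated above. Over all animals left out, that difference ranged from 5.26 to 7.76 points and the count of Pck1 CpGs past the adjusted threshold from 0 to 4. For maternal diet at Pck1 the difference ranged from -5.65 to -4.14 points and the unadjusted p from 0.00493 to 0.0192 over the 39 animals left out, and the adjusted p from 0.0725 to 0.248. Signs that turned were those of small differences. LH vs LL at Pck1 was 0.0649 points by the median over CpGs, 0.0722 in log odds by the quasi-binomial model, 0.00486 by limma on log2 read ratios and 4.76 points within runs, and ranged from -1.61 to 2.03 points over animals left out. LH vs LL at Pck2 was 0.0467 in log odds by the quasi-binomial model and 0.0835 points within runs, and ranged from -0.0570 to 0.0146 points. HH vs HL at Pck2 was -0.0423 in log odds by the quasi-binomial model. Over animals left out, HH vs LH at Pck2 ranged from -0.0546 to 0.0170 points and post-weaning diet at Pck2 from -0.0140 to 0.0218. The Pck1 difference in spread was -3.61 points from the group mean. The causes were not tested. The count of Pck1 CpGs with an unadjusted p under 0.05 in HH vs HL was 1 by limma, in place of 3. Counts of Pck2 CpGs with an unadjusted p under 0.05 lay between 0 and 3 under every alternative, the 3 being for post-weaning diet without HL replicate 10. The labels give no replicate numbers that groups share, so only runs of animal numbers were used as a block, in LH vs LL and HH vs HL. The smallest possible exact permutation p within runs was 0.02 and 0.0125 at the members. A member alone could therefore not pass adjustment over 19 loci in these tests, whatever its values. The number of DNA molecules behind the reads is unknown, so how far it limits either promoter was not tested.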
